A study of Mus musculus with 16 samples.

Results

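A set of 3891 regions of open chromatin was shared by liver and kidney alone among 8 mouse tissues, out of 760105 merged regions in all (0.512%). The regions were selected on the deposited peak lists themselves. Peaks with a q-value, the false discovery rate of the peak caller, of at most 0.01 in any of the 16 libraries were merged where they shared at least 1 bp. A merged region was kept if it held such a peak in fed liver, fasting liver, fed kidney and fasting kidney and was overlapped by no listed peak, however weak, of the other 12 libraries. The assay was ATAC-seq, which uses the Tn5 transposase to cut and tag open DNA, and it was applied to muscle, liver, heart, lung, white adipose, brown adipose, spleen and kidney. The tissues came from male C57BL/6 mice, acquired at 12 weeks of age, that had free access to standard chow (fed) or no food for 24 h (fasting). Each library was made from nuclei of frozen tissue pooled from the 3 mice of a group, and all tissues of a state came from the same mice. The labels name no allele, agent or treatment other than feeding. There was thus 1 library for each tissue and state, no value below has a replicate, and no test was made between libraries. In bulk tissue, fewer cells of a type and a weaker signal per cell cannot be told apart.

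Hepatocytes and the epithelial cells of the renal proximal tubule are distinct cell types with much metabolism in common. Both make glucose from lactate, glycerol and amino acids, take up organic anions and cations from blood, break down amino acids and fatty acids, and conjugate foreign compounds. The nuclear receptor HNF4A is a known regulator in both epithelia. FOXA and C/EBP factors are best known from hepatocytes.

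The sequences of 6 regions are shown because these were the strongest regions, by mean rank over the 4 libraries and outside exons, that carried the letters of the HNF1 or HNF4 motif near the summit. HNF1 was searched as GTTAATNAT and HNF4 as CAAAGTCCA, exact letters on either strand. Each line gives the nearest protein-coding gene and 201 bases centred on the summit of the strongest peak, 5′ to 3′, in lower case with the match in capitals.
Armc9 region, HNF1 match, GRCm38 chr1:86176044-86176244, plus strand: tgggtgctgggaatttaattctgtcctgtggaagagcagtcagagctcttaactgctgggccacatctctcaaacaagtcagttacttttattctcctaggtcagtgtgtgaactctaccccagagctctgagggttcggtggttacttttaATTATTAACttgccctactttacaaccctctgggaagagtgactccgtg
Olfm3 region, HNF1 match, GRCm38 chr3:115080502-115080702, plus strand: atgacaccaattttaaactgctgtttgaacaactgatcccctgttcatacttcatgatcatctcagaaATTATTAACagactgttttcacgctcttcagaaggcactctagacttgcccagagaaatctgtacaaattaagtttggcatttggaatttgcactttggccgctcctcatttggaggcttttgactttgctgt
Slit3 region, HNF4 match, GRCm38 chr11:35469985-35470185, plus strand: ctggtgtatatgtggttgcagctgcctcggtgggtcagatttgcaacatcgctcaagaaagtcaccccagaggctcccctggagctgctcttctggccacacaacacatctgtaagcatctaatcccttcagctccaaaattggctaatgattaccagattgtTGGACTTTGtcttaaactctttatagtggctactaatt
Ercc4 region, HNF4 match, GRCm38 chr16:13190452-13190652, plus strand: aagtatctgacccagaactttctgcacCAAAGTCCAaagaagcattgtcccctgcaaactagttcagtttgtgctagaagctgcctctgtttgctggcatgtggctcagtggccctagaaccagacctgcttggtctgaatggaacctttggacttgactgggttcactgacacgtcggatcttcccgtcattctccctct
Bzw1 region, HNF4 match, GRCm38 chr1:58353563-58353763, plus strand: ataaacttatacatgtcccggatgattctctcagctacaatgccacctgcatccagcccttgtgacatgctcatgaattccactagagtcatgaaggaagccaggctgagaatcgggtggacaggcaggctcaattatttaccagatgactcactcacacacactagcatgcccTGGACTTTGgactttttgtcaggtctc
Cpeb2 region, HNF1 match, GRCm38 chr5:43183694-43183894, plus strand: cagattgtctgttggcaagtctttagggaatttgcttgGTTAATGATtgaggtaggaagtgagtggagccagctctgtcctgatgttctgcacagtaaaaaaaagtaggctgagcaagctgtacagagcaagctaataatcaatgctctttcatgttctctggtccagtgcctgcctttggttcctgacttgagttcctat
The matches lay off the centre of the window in all 6 regions, with their midpoints 28 to 78 bp from the summit. The Armc9, Olfm3, Slit3 and Bzw1 matches read on the minus strand, and the Ercc4 and Cpeb2 matches on the plus strand. The Armc9, Olfm3 and Slit3 windows lay in introns of those genes, the Bzw1 window in an intron of Aox2, the Cpeb2 window in an intron of Gm7854, and the Ercc4 window between genes.

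Liver and kidney shared more regions to the exclusion of the other tissues than did any of the other 27 pairs of tissues. The 3891 regions compared with 2896 for brown and white adipose, 2025 for spleen and lung, 1379 for muscle and heart and 725 for kidney and lung. The median over the 28 pairs was 278 regions and the lowest count was 25, for white adipose and heart. Of the 52735 merged regions with a peak in all 4 liver and kidney sets, 7.38% had no listed peak elsewhere. That share was also the highest of the 28, ahead of 4.88% for brown and white adipose, and the median pair had 0.588%. Among the remaining regions of these 52735, 24664 were overlapped by a peak in all the other 12 lists. A further 2053 were overlapped in exactly 1, which was fed white adipose for 445 of them. Regions held in both states of a single tissue and in no other list numbered 10701 for liver and 20658 for kidney.

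**Figure D1:**
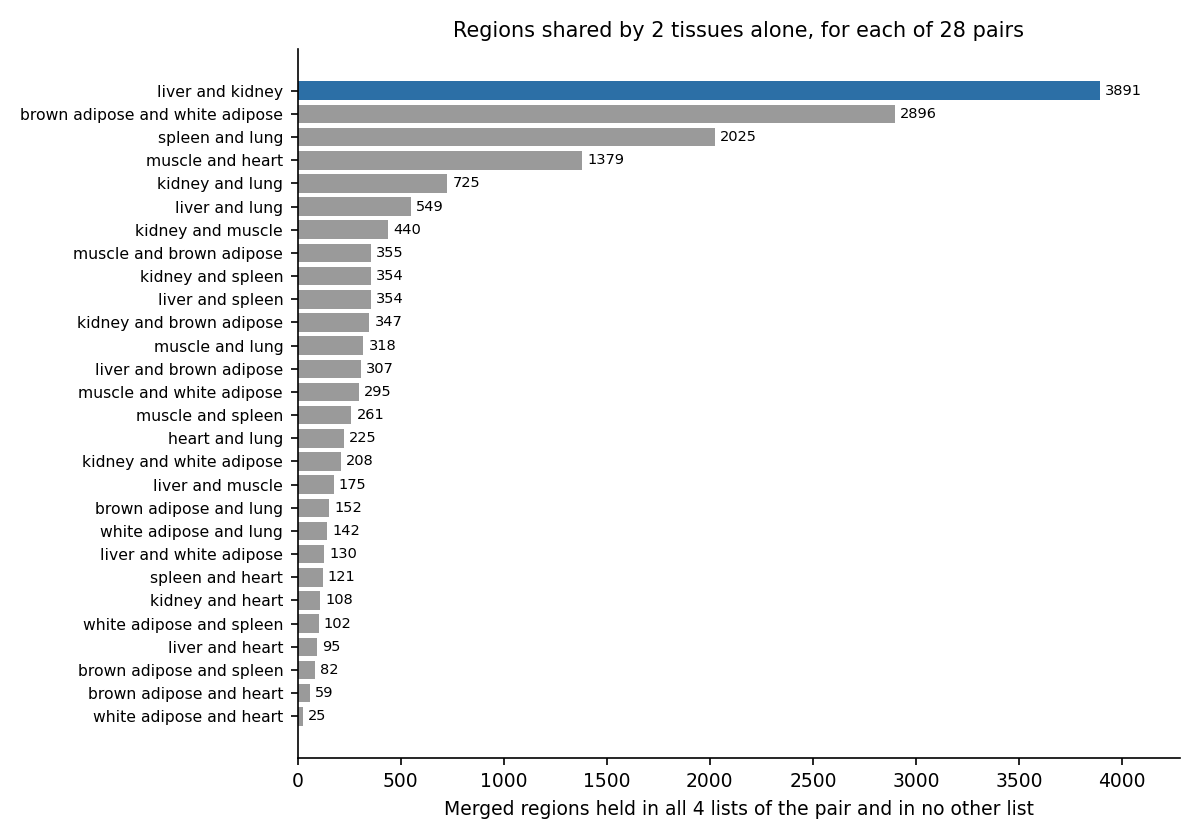
Number of merged regions (x axis) held in all 4 lists of a pair of tissues and overlapped by no peak of the other 12 lists, for each of the 28 pairs (y axis), with each count printed beside its bar. Liver and kidney stand first with 3891, ahead of brown and white adipose with 2896.

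The lists differ in length and depth, which bears on what absence from a list means. The 16 lists held 298996 to 299529 rows, since the authors kept at most 300000 peaks, and 149835 to 239804 distinct regions. In 8 lists, those of both kidney libraries among them, every row passed the q-value threshold, so that the limit ended the list before the threshold was reached. The other lists ran past the threshold and also held peaks that failed it. The number of tags, that is Tn5 cuts, expected by chance at a summit was 2.80 and 2.82 in fed and fasting liver, 4.67 and 4.64 in kidney, and up to 12.8 in fed brown adipose. A region with no listed peak is therefore not shown to be closed.

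Markers of the labelled tissues behaved differently in the 2 organs. All 20 hepatocyte marker genes had a peak within 3000 bp of their start in both liver libraries, with a mean rank of 88.9 fed and 90.4 fasting. Here and below, rank is the percentile of a peak by its p-value within its own list, 100 being the strongest, and a gene without a peak counts as 0. The same list had peaks at 9 genes in fed kidney and 11 in fasting kidney, with mean ranks of 33.6 and 36.7, against 11.5 to 25.6 in the other 12 libraries. Defining hepatocyte genes such as Cyp7a1, Cyp2c29, Tat and Cps1 had no listed promoter peak in either kidney library, while other genes of the list did. In fasting and fed kidney Itih3 ranked 92.3 and 94.6, Ttr 86.8 and 86.2, and Slc10a1 82.7 and 81.2. These genes also had peaks in other tissues. Itih3 ranked 78.3 and 82.4 in fasting and fed brown adipose. In fed white adipose Ttr ranked 80.9 and Slc10a1 67.3. Apoa1 and Apoa2, also among the genes with kidney peaks, had a peak in every library of the series. The nephron markers had peaks at 18 of 19 genes in both kidney libraries, mean ranks 72.6 and 72.8, and at 15 and 11 genes in fed and fasting liver, mean ranks 49.5 and 42.6. In the other 12 libraries the nephron list ranged from 27.2 to 57.6. Endothelial markers had mean ranks of 69.3 and 71.3 in fed and fasting liver, 50.7 and 53.5 in kidney and 58.7 to 91.5 elsewhere. Immune markers had 36.5 and 29.0 in liver, 8.14 and 5.75 in kidney and 12.98 to 84.2 elsewhere. The part of cells of another type in the results below was not tested.

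The shared regions ranked higher within the liver lists than within the kidney lists, although their peaks in kidney stood on more tags. These ranks come from the peaks that selected the regions and are given as a description. The median rank was 78.4 in fed liver, 79.7 in fasting liver, 66.6 in fed kidney and 68.3 in fasting kidney. At the summit the median region had 23 tags in fed liver, 37 in fasting liver, 66 in fed kidney and 62 in fasting kidney, a fold enrichment over the local background of 4.74, 6.00, 5.82 and 5.51. All regions of the 4 sets, whatever the other tissues held, ranked higher, with medians of 85.1, 83.4, 77.3 and 78.4. Regions private to liver had medians of 68.4 and 68.9, and those private to kidney 50.9 and 47.7.

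Liver outranked kidney in most shared regions. Both liver ranks lay above both kidney ranks in 2127 regions (54.7%), both kidney ranks lay above in 634 (16.3%), and the ranks overlapped in 1130. Over all regions of the 4 sets the corresponding shares were 46.9% and 19.8%. The lists of the organs have different lengths and depths, so this balance is one of ranks and not of accessibility. Only 112 regions ranked at 90 or more in all 4 libraries, and 43 ranked under 50 in all 4. Across the 3891 regions Spearman's rho was 0.734 between fed and fasting liver, 0.887 between fed and fasting kidney and 0.295 between the organ means. These points share libraries and lie side by side on the genome, so the coefficients only describe them.

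**Figure D2:**
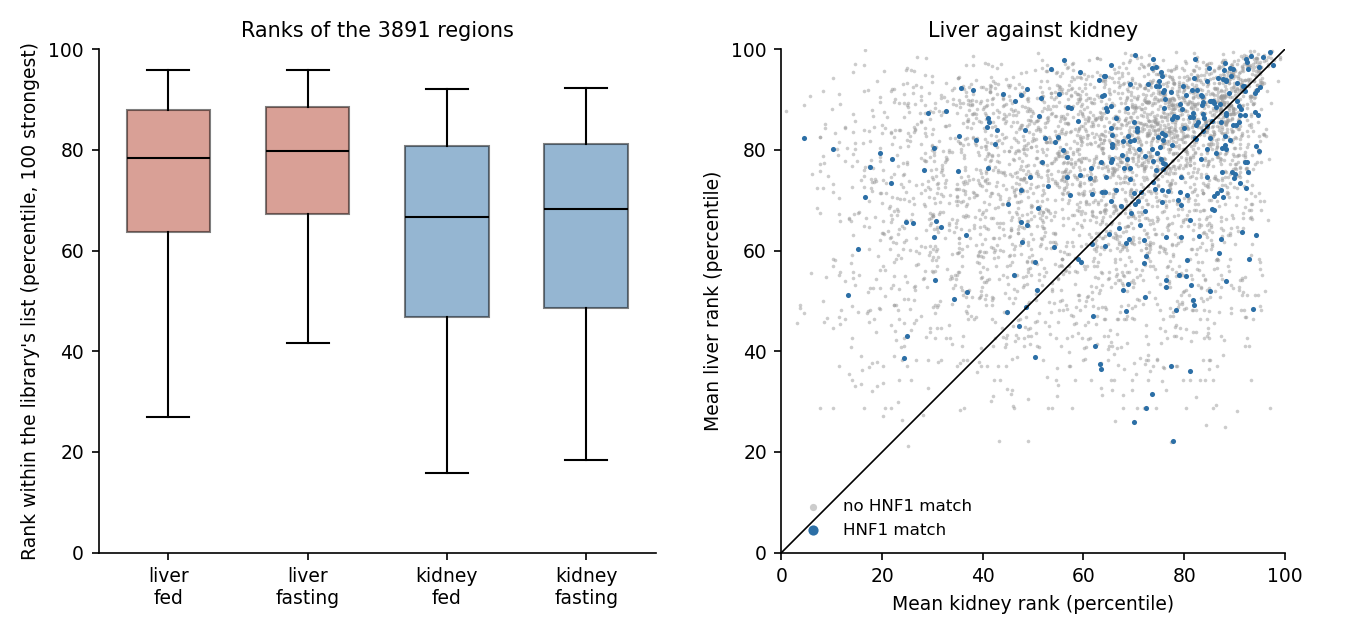
Left, rank of the 3891 regions (percentile within each library's list) in the 4 libraries, with box lines at the quartiles and median and whiskers at the 5th and 95th percentiles. Right, mean liver rank against mean kidney rank of each region, with the line of equality and regions with an HNF1 match in blue; the medians of 78.4 and 79.7 in liver against 66.6 and 68.3 in kidney place most points above the line.

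The kidney lists ended at a −log10 q of 3.20 fed and 2.56 fasting, so a region at the threshold of 2 could only be at it in a liver library. The members just inside it lay nearest to Smad7, Cadm1 and Sord, with a lowest −log10 q of 2.0001 in fasting liver, 2.0032 in fed liver and 2.0038 in fasting liver. The regions just outside lay nearest to Mtmr11, at 1.9998 in fed liver, and to Acsm1 and Ppp1r37, both at 1.99 in fasting liver. In all, 275 regions held in 3 of the 4 sets had a weaker peak in the other list and no peak elsewhere, and a further 3273 had no listed peak in the other list and none elsewhere.

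Sequence near the summit was not used to choose the regions. In all, 12 motifs were searched in the 201 bases around each summit. HNF1 matched in 309 regions, 7.94% (exact 95% Clopper-Pearson interval 7.11 to 8.84), against 0.703% of all 760105 merged regions, a ratio of 11.3. HNF4 matched in 253 regions, 6.50% (5.75 to 7.32), against 0.535%, a ratio of 12.2. In the regions of all 4 liver and kidney sets the shares were 1.63% and 1.36%. The window there, as in all merged regions, was centred on the peak of highest rank in any of the 16 libraries. Where other tissues had a peak it could lie at their summit, so these backgrounds are not strictly like for like. Either motif was present in 14.4% of the shared regions and in 1.23% of all merged regions, and both together in 2 regions. The intervals cover counting error only, and regions of 1 library are not replicates of a condition.

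Both shares were the highest among the 28 pairs of tissues. The next highest HNF1 share was 3.17% and the median pair had 0.373%. For HNF4 the next highest was 4%, which came from the 25 regions of white adipose and heart, and the median was 0.153%. The regions shared by muscle and heart had HNF1 in 0.363% and no HNF4 match in 1379 regions, which allows up to 0.267% by the exact interval.

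The shared regions also stood above the regions private to either organ. HNF1 matched in 1.54% (1.32 to 1.79) of the regions private to liver and in 5.19% (4.89 to 5.50) of those private to kidney. HNF4 matched in 1.78% (1.54 to 2.05) and 3.01% (2.78 to 3.25). The intervals of the shared regions overlapped neither, but the private regions also had lower median ranks. In the weakest group of shared regions by mean rank, HNF1 was in 4.52% (3.30 to 6.02), which spans the kidney-private 5.19%. HNF4 was in 4.83% (3.57 to 6.37) of that group, above both private shares. The part of peak strength in these differences was not tested. The hepatic motifs gave another order: FOXA, searched as TGTTTAC, was in 5.14% of the shared regions, 6.83% of the liver-private and 2.85% of the kidney-private ones, with 2.92% over all. C/EBP, searched as TTGNGCAA, was in 3.44%, 5.19% and 1.90%, with 2.47% over all. For both, the shared regions lay between the private sets of the organs.

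The direct repeat bound by PPAR and RXR, searched as AGGTCAAAG, was in 1.67% of the shared regions against 0.450% of all. The end of these letters overlaps the start of the HNF4 letters, so a single stretch can match both. The remaining motifs lay near the level of all regions or below it. The AP-1 motif, searched as TGANTCA, was in 7.89% against 7.22%. The motif of GATA factors, searched as AGATAAG, was in 2.62% against 2.41%, and that of the ESRR receptors, searched as TCAAGGTCA, in 0.694% against 0.579%. Motifs known from insulators and housekeeping promoters were rarer: CTCF, searched as CCANNAGGG, was in 3.83% against 4.49%, ETS factors, searched as CCGGAAG, in 0.874% against 1.29%, and SP/KLF, searched as GGGGCGGGG, in 0.437% against 1.02%. The muscle motif of MEF2, searched as CTATTTATA, was in 0.154% against 0.282%. A match is a run of letters and not a measured binding site, and no match says only that these letters were not in the window.

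**Figure D3:**
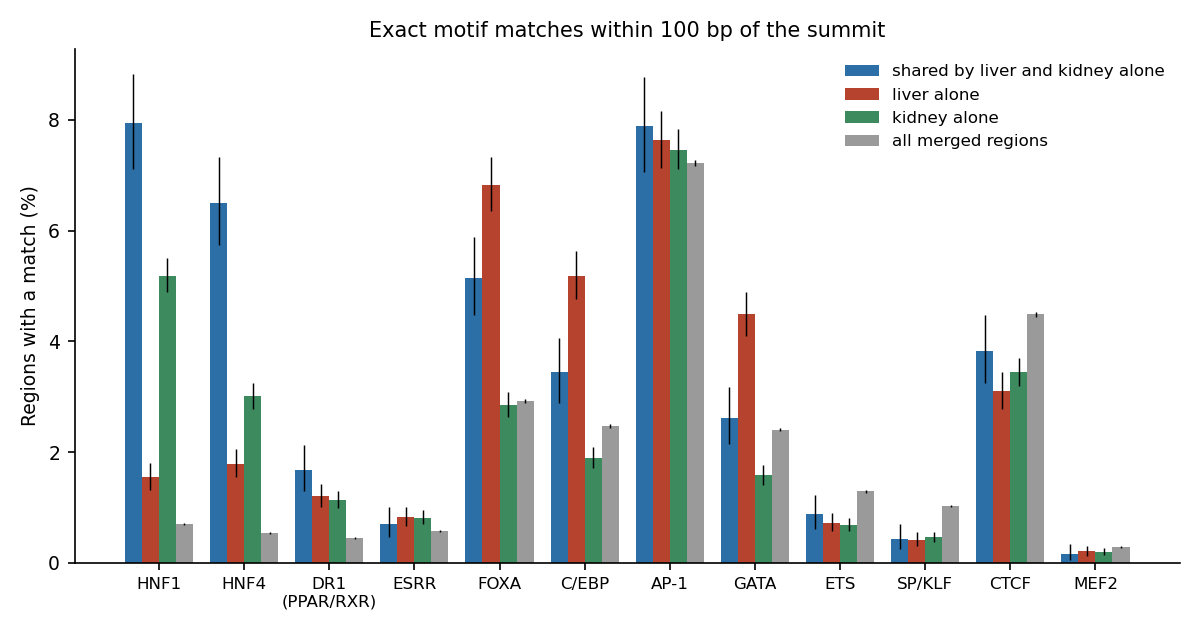
Share of regions with an exact match within 100 bp of the summit (y axis, %) for 12 motifs (x axis), in the regions shared by liver and kidney alone, the regions private to each organ and all merged regions; error bars are exact 95% intervals for counting error. HNF1 at 7.94% and HNF4 at 6.50% of the shared regions stand above the other 3 sets.

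The matches were concentrated beside the summit and were less dense at its centre, though denser there than far from it. Within 10 bp there were 0.5 HNF1 and 0.55 HNF4 matches per bp. In the bins from 150 to 250 bp there were at most 0.25 and 0.175. Of 404 HNF1 matches within 250 bp of the shared summits, 230 (56.9%) lay 30 to 70 bp away and 10 lay within 10 bp. For HNF4, 172 of 324 matches (53.1%) lay 30 to 70 bp away and 11 within 10 bp. In all merged regions the same interval held 27.5% of the HNF1 and 29.9% of the HNF4 matches. Within 10 bp lay 2.48% and 3.40% of the matches in the shared regions, against 1.54% and 2.96% in all merged regions. Within 50 bp of the summit HNF1 matches were 7.41 times as dense as at 150 to 250 bp, and HNF4 matches 14.4 times, against 1.09 and 1.77 in all merged regions. Of the 6 windows printed above, 4 had the match at 30 to 70 bp, with Olfm3 at 28 bp and Bzw1 at 78 bp outside that interval.

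**Figure D4:**
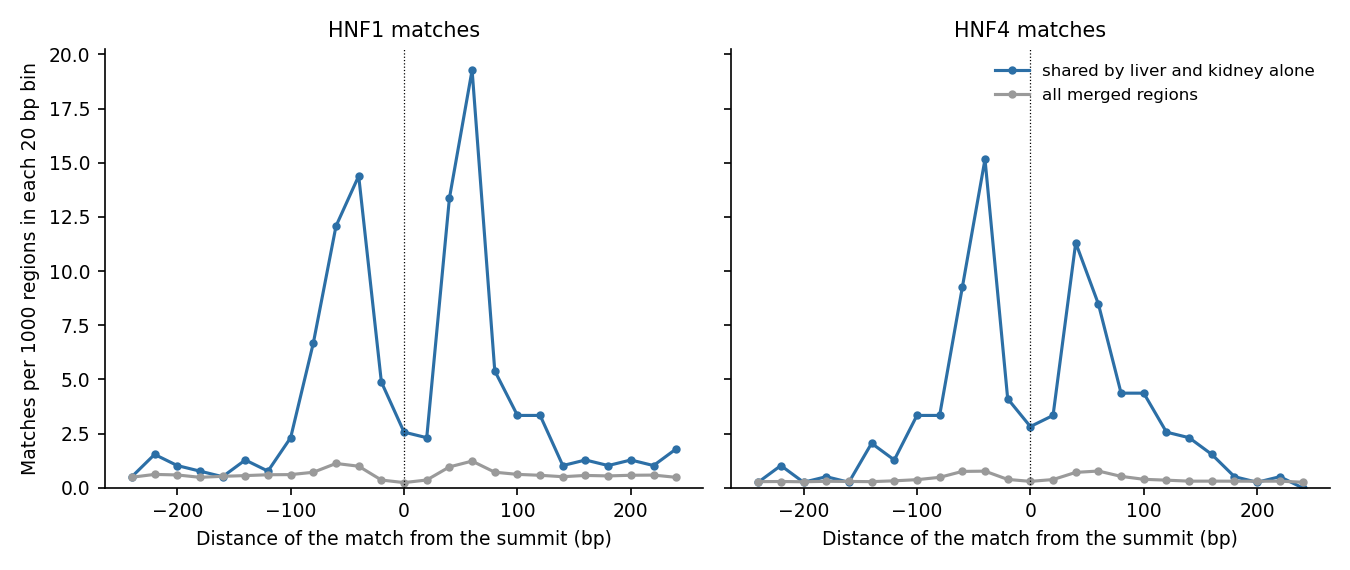
Matches per 1000 regions in 20 bp bins (y axis) by distance of the match from the summit (x axis, bp) for HNF1 (left) and HNF4 (right), in the regions shared by liver and kidney alone (blue) and in all merged regions (grey). The shared regions show a peak on each side of the summit, with 230 of 404 HNF1 and 172 of 324 HNF4 matches 30 to 70 bp away.

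Stronger regions carried HNF1 more often. The regions were split by mean rank into 4 groups of 972 or 973. HNF1 was in 4.52% (3.30 to 6.02) of the weakest group, 7.09% of the next, 8.74% of the third and 11.4% (9.48 to 13.6) of the strongest. For HNF4 the share went from 4.83% (3.57 to 6.37) in the weakest to 8.43% (6.76 to 10.4) in the strongest group. FOXA showed no such order, at 5.55%, 4.93%, 4.01% and 6.06%. The 309 regions with HNF1 had a median rank of 80.3 in liver and 74.5 in kidney, and the 3582 without had 77.9 and 66.0. Among regions ranked higher in kidney, 11.2% (8.85 to 13.9) held HNF1, against 7.10% (6.04 to 8.27) of those ranked higher in liver. For HNF4 the shares were 5.84% (4.14 to 7.95) and 6.35% (5.35 to 7.47), whose intervals overlap.

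The shared regions lay near starts somewhat more often than all merged regions and less often than the regions of all 4 liver and kidney sets. The summit lay within 3000 bp of an annotated start in 28.2% of the regions (26.8 to 29.7), against 23.6% of all merged regions, 23.0% of the liver-private and 21.0% of the kidney-private ones, and 45.4% of the regions of all 4 sets. The median distance to a start was 7521 bp, against 9836 bp over all merged regions and 4046 bp over the regions of all 4 sets. That share was number 5 among the 28 pairs, which ranged from 13.7% to 33.8%. Introns held 55.9% of the summits, intergenic sequence 35.4%, UTRs 3.11%, non-coding exons 3.08% and coding exons 2.42%. Over all merged regions introns held 54.9% and intergenic sequence 35.5%, and over the regions of all 4 sets 45.8% and 35.8%. Regions near a start and far from one held the motifs at similar rates: HNF1 was in 6.83% (5.41 to 8.49) of the 1098 regions near a start and in 8.38% (7.38 to 9.47) of the 2793 farther away, and HNF4 in 5.92% and 6.73%. The shared regions had a median GC content of 46.8% against 49.3% over all, and a median width of 385 bp against 170 bp. The regions of all 4 liver and kidney sets, whatever the other tissues held, had a median GC content of 53.2% and a median width of 700 bp, so that the shared regions were wider than merged regions in general but narrower than those they were drawn from. Chromosome 19 had the most regions per megabase (2.18). The X chromosome had 82 of 9792 merged regions (0.837%), the highest share of any chromosome, against 0.512% over all. The Y chromosome had none of 95.

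The strongest regions were near genes of varied function. The 10 regions of highest mean rank had ranks between 94.99 and 99.8 in the 4 libraries. The leading one, at chr1:89025588-89026488 between genes and 44236 bp from the start of Sh3bp4, an endocytic adaptor, ranked 97.5 and 99.5 in fed and fasting liver and 98.5 and 99.5 in fed and fasting kidney. Proz, which encodes the plasma protein Z, had a region over its start at chr8:13060473-13061119 that ranked 97.7, 98.7, 98.5 and 99.5 in the same order and held an HNF4 match. Those peaks stood on 89 tags in fed liver, 193 in fasting liver and 317 in fed kidney. Stx18, a SNARE of the endoplasmic reticulum, followed with a region 19 bp from a start that ranked 99.4 and 99.8 in liver and 97.1 and 97.8 in kidney. A region in an intron of Armc9, a ciliary gene, ranked 99.6, 99.3, 96.4 and 97.6 and held the HNF1 match printed above. The others lay nearest to Kdm8, Ccser2, Gas2, Trps1, Slc39a11 and Olfm3, at 29 to 559816 bp from the start. Distances of this size leave the target of such a region unknown, and here the nearest start only names it.

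Near starts of protein-coding genes, the 10 strongest regions again began with Proz, Stx18, Gas2 and Olfm3. Ces2h, a carboxylesterase, had a region 130 bp from its start that ranked 97.4 and 96.1 in fed and fasting liver and 97.6 and 97.6 in kidney. At Cyp2j5, an epoxygenase of arachidonic acid, the region lay 14 bp from the start and ranked 97.3, 98.1, 95.1 and 96.5. The remaining regions of this group were at Birc6, Snx10, Capn2 and Tmem144, with mean ranks from 95.7 to 97.1. In these 4 each liver rank exceeded each kidney rank.

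The shared regions were spread over many genes. Of 21911 protein-coding genes, 2709 were the nearest gene of at least 1 region, which is 12.4% of all such genes. Of these, 1979 had 1 region, 681 had 2 to 4 and 49 had 5 or more. Sall1, a zinc-finger transcription factor needed for kidney development, had the most, 13 of the 189 merged regions nearest to it. They lay 2312 to 412533 bp from its start, and the strongest, about 30715 bp downstream of the start, ranked 96.2 and 98.3 in fed and fasting liver and 86.6 and 84.2 in kidney. The region closest to the start ranked only 34.4 and 47.2 in liver and 15.8 and 12.01 in kidney, so the ranks at Sall1 spanned most of the scale. Ptprg, a receptor tyrosine phosphatase, had 11 of 463 merged regions. Nr2f2, an orphan nuclear receptor of venous endothelium and mesenchyme, had 10 of 267. Ptprk, another receptor phosphatase, Klf12 and Bnc2, both zinc-finger factors, had 8 each, of 216, 292 and 286. The adhesion receptor Adgrl2 had 7 of 773 (0.906%) and Fyb2 had 7 of 50 (14%), against 0.512% over all merged regions. This order is thus one of counts and not of shares.

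Some metabolic genes had dense groups. Ces2h had 7 shared regions among only 17 merged regions nearest to it (41.2%), and Aass, the entry enzyme of lysine breakdown, had 7 of 33 (21.2%). Overall 1717 regions (44.1%) had another within 50000 bp, and 44 runs held 5 or more. The 3 longest runs, chosen for naming after their counts were seen, were at multigene families. The longest held 13 regions over chr8:104944765-105122496 at the carboxylesterase genes Ces2f to Ces4a, with 67 merged regions in all. The next held 12 at Cyp2d genes, chr15:82532763-82794894, and another 11 at the retinol dehydrogenase genes Rdh9, Rdh16 and Rdh7, chr10:127775946-127902188. These families hold near-identical copies, and the sources do not state how reads that map to several copies were placed, so the counts there are uncertain.

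In the lists of functions common to both organs, more of the regions held in all 4 liver and kidney sets were shared by these organs alone than over all genes. Each list is described by the shared regions nearest to its genes, as a share of the regions there that were held in all 4 liver and kidney sets, which over all genes is 7.38%. The lists were drawn up with the biology of both organs in mind, so their shares only describe the regions.

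For organic ion and bile acid transporters, 19 of 30 genes had a shared region, and 42 of 147 regions (28.6%, interval 21.4 to 36.6) were shared by liver and kidney alone. Slc10a2, the sodium-dependent bile acid transporter of ileum and renal tubule, had 4 regions. The strongest, 74559 bp from its start, ranked 95.7 and 94.3 in fed and fasting liver and 87.2 and 92.2 in kidney, with an HNF4 match. Slc26a1, a sulfate and oxalate exchanger, had 2, and its stronger region, 172 bp from the start, ranked 95.1, 98.1, 87.5 and 87.9. At Slc22a7, the organic anion transporter OAT2, a region 284 bp from the start ranked 98.2 and 98.7 in liver and 85.3 and 79.8 in kidney. Slco1a4, an uptake transporter of organic anions and bile acids, had 3, the strongest at 88.8, 95.1, 86.5 and 88.3. That region lay in a non-coding exon of Gm30784, 10183 bp from the Slco1a4 start. A region in an intron of Slc22a8, 12755 bp from the start of Slc22a6, the renal organic anion transporter OAT1, had the opposite balance. It was named after its values were seen and ranked 81.1 and 82.3 in liver and 96.1 and 93.9 in kidney. Of the 42 regions, 8 held an HNF1 or HNF4 match, where 14.4% of all shared regions did. Among the lists described below, the counts were 2 of 38 for peroxisomes and fatty acid oxidation and 6 of 41 for amino acids. They were 2 of 21 for glucose and fructose and 1 of 20 for conjugation. The lipoprotein list had 4 of 28 and the transcription factors had 3 of 36. The multispecific exporters Abcc2 and Abcg2 had 3 and 4 regions.

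Genes of peroxisomes and fatty acid oxidation came close to that, with 20 of 30 genes and 38 of 143 regions (26.6%, 19.5 to 34.6). Crot, the peroxisomal carnitine octanoyltransferase, had 4 regions. The strongest lay 37580 bp from its start and 23 bp from a start of Gm40264. It ranked 98.1 and 96.9 in liver and 87.7 and 87.6 in kidney. A region 26890 bp from the start of Fabp1, the liver-type fatty acid-binding protein, ranked 96.3, 96.1, 89.1 and 84.5. Cyp4a10, a fatty acid omega-hydroxylase and known PPARA target, had a region 12 bp from its start at 89.7, 94.5, 85.7 and 86.7. Ppargc1a, the coactivator of oxidative metabolism and gluconeogenesis, had 4 regions, all 14061 bp or more away, and the strongest ranked 83.6 and 77.2 in liver and 91.3 and 90.9 in kidney.

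For amino acid, creatine and pyrimidine metabolism, 19 of 38 genes and 41 of 163 regions (25.2%, 18.7 to 32.5) were counted. Gldc, the decarboxylase of the glycine cleavage system, had a region 26877 bp from its start that ranked 98.3 and 97.4 in liver and 96.1 and 96.5 in kidney. A region 11013 bp from the start of Bhmt, which remethylates homocysteine with betaine, followed at 97.6, 96.3, 91.5 and 94.6. The region nearest to Dao, the D-amino acid oxidase, lay in a coding exon of Svop, 11314 bp from the Dao start. It ranked 94.8, 93.8, 96.7 and 94.4, with overlapping ranks in the organs. Ddc, the aromatic amino acid decarboxylase, had a region 27 bp from its start at 92.8, 94.1, 91.5 and 94.1. These 4 regions were near the top of all 4 lists. Dpyd and Hpd, enzymes of pyrimidine and tyrosine breakdown, had 5 and 4 regions, and 6 of the 41 held an HNF1 or HNF4 match.

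In the glucose and fructose list, 10 of 20 genes and 21 of 94 regions (22.3%, 14.4 to 32.1) were counted, and its share of all merged regions nearest to its genes, 4.08%, was the highest of the 11 lists against 0.512% overall. Slc2a2, the glucose transporter GLUT2 of the basolateral membrane in both epithelia, had 6 regions. The strongest was over its start, chr3:28697750-28698280, and ranked 93.2 and 94.7 in fed and fasting liver and 83.7 and 81.0 in kidney. It stood on 60 tags in fed liver, 118 in fasting liver, 170 in fed kidney and 147 in fasting kidney. Fbp1, fructose bisphosphatase of gluconeogenesis, and Sord, sorbitol dehydrogenase, had 3 each. Khk, the ketohexokinase that starts fructose breakdown, had a region at 94.3, 92.4, 78.6 and 77.1. G6pc, the glucose-6-phosphatase that releases glucose, had 2, the stronger of which ranked 78.7 fed and 61.3 fasting in liver and 84.8 and 85.7 in kidney. That region lay 13932 bp from the G6pc start and 84 bp from a start of Gm11619.

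Conjugation and detoxification had 12 of 30 genes and 20 of 119 regions (16.8%, 10.6 to 24.8). Besides Cyp2j5 it held Cyp2d26, with a region 148 bp from the start at 94.0 and 87.4 in liver and 86.4 and 91.1 in kidney. The glycosyltransferase Ugt3a1 had 3 regions, 1 of them 19 bp from the start at 93.2, 90.7, 82.5 and 84.8. Aldh8a1, an aldehyde dehydrogenase, had 3, the strongest at 85.1, 87.4, 88.7 and 88.5. Lipoprotein, endocytic and plasma protein genes had 14 of 30 genes and 28 of 98 regions (28.6%, 19.9 to 38.6). Apoh, apolipoprotein H, had a region 22 bp from its start that ranked 91.0 and 98.8 in fed and fasting liver and 83.8 and 92.0 in kidney, higher in fasting in both organs. Apob, the scaffold of very-low-density lipoprotein, had 6 regions. The strongest lay 57454 bp from its start and ranked 93.4, 89.9, 85.6 and 83.9. A region 21568 bp from Alb, albumin, also named after its values were seen, held an HNF4 match and ranked 94.2 and 96.3 in liver and 71.3 and 63.9 in kidney.

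Transcription factors of liver and kidney had 13 of 25 genes and 36 of 193 regions (18.7%, 13.4 to 24.9). Hnf4a, Nr1h4 and Maf had 6 each and Nr5a2 had 4. Nr1h4, the bile acid receptor FXR, had a region over its start, chr10:89506363-89507053, at 86.3 and 88.2 in liver and 87.8 and 88.8 in kidney, with overlapping ranks. A region 122431 bp from Maf was the strongest of the list at 98.6, 97.4, 94.6 and 94.3. The strongest region near Foxa2, 51893 bp from its start, held an HNF4 match and ranked 91.6, 91.7, 90.6 and 85.3. Pax8, a factor of the developing nephron, had 1 region.

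The marker lists of single cell types gave few regions, apart from hepatocytes. Hepatocyte markers had 6 of 20 genes and 11 of 31 regions (35.5%, 19.2 to 54.6), among them 4 at Ttr and 2 each at C8a and Fgb. This share was the highest of all the lists. The regions at Ttr, Fgb, Alb and Apoa1 are also counted in the lipoprotein, endocytic and plasma protein list. Nephron markers had 2 of 19 genes and 2 of 29 regions (6.90%, 0.846 to 22.8). At Slc34a1, the phosphate transporter of the proximal tubule, the region ranked 68.9 and 92.1 in fed and fasting liver and 92.5 and 92.5 in kidney. At Nphs1, nephrin of the podocyte, it ranked 96.2 and 97.5 in liver and only 44.9 and 31.2 in kidney. Endothelial markers had 2 of 75 regions (2.67%), 145403 bp from the start of Cdh5 and 60877 bp from that of Cldn5, both between genes. Immune markers had 2 of 11 (18.2%, 2.28 to 51.8), in a coding exon of Csf1r and an intron of Cd4.

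**Figure D5:**
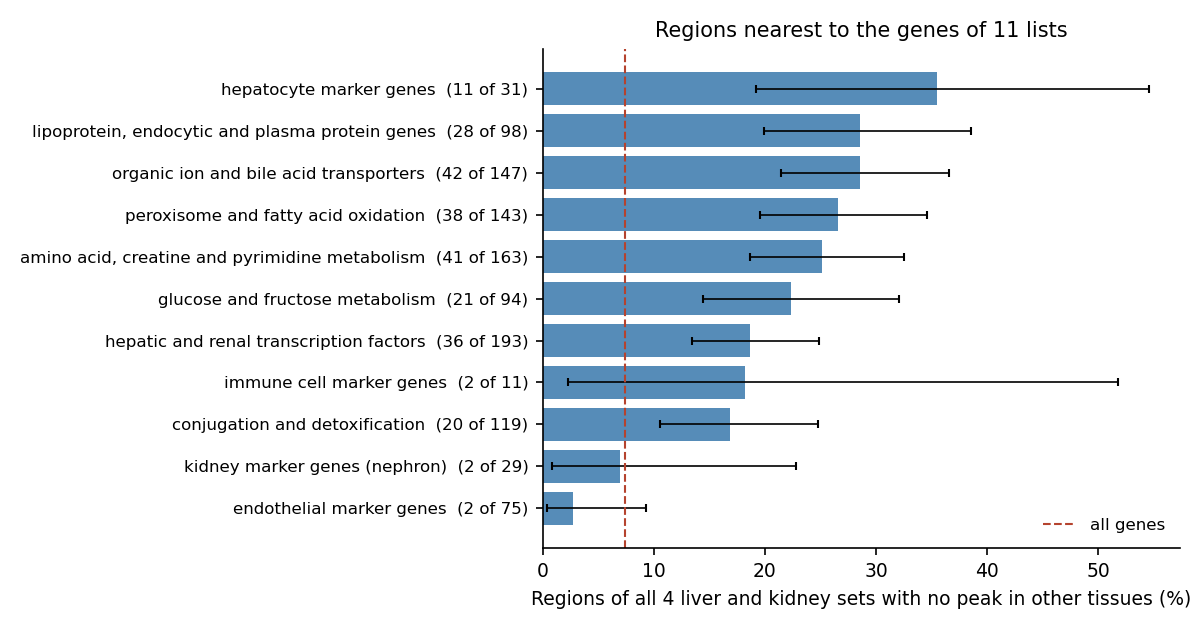
For each of 11 gene lists (y axis, with the counts), the share of regions in all 4 liver and kidney sets nearest to its genes that had no peak in another tissue (x axis, %), with exact 95% intervals for counting error and the value over all genes, 7.38%, as a dashed line. Hepatocyte markers lie highest at 35.5%. The transporter, peroxisomal, amino acid and lipoprotein lists lie at 25.2% to 28.6%. Immune, nephron and endothelial markers lie at 18.2%, 6.90% and 2.67%.

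Fasting against fed was described by the change of rank within each organ, with 20 points counted as a shift. In liver, 479 shared regions ranked at least 20 points higher in fasting (12.3%), against 9.23% of the 85132 merged regions held in both liver sets. A fall of that size was seen in 228 (5.86%), against 8.01%. In kidney, 298 shared regions ranked higher (7.66%) against 8.19% of 119634 regions, and 189 lower (4.86%) against 6.61%. The median change was 1.41 points in liver, against −0.31 over the regions of both liver sets, and 0.51 in kidney, against 0.36. Among the 52735 regions of all 4 liver and kidney sets, from which the shared regions were drawn, 6.42% rose and 5.45% fell in liver, and 5.22% rose and 2.50% fell in kidney. The share that rose in liver was thus above both backgrounds, whereas the share that fell in liver and both kidney shares lay below the first background and above the second. Fewer shifts were counted under stricter settings. Such settings remove the lower ranks of a list and leave less room for a shift. The lower counts therefore cannot be read as a trait of stronger regions. With a −log10 q of at least 6 in the liver and kidney lists, 17 of 2011 regions shifted by 20 points in either direction in liver and 106 in kidney. With the 100000 strongest regions of each list, 76 of 2290 did in liver and 70 in kidney. These totals compare with 707 and 487 among the 3891 regions. At the summits of the shared regions the medians were 23 tags in fed and 37 in fasting liver. The tags expected by chance at a summit were 2.80 and 2.82 in these libraries. The part of depth in the shift was not tested.

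Among the shared regions the shifts in the organs were nearly unrelated. Regions that rose in both organs numbered 39 and those that fell in both 17, while 29 rose in liver and fell in kidney and 15 did the reverse. Spearman's rho between the changes was 0.0791 over the 3891 regions. Neither these counts nor the coefficient has a value over other regions beside it, so both only describe the shared regions. The largest rise in liver was in an intron of Tns1, the focal adhesion protein tensin, from 18.6 to 85.6, with 21 tags fed and 75 fasting. That region also rose in kidney, from 9.06 to 44.1. A region in an intron of Slc27a2, a very long-chain acyl-CoA synthetase and fatty acid transporter, rose from 16.4 to 83.2 in liver, with 22 and 95 tags, and went from 54.0 to 44.5 in kidney. The third rise, near Uspl1 in an intron of Hmgb1, went from 26.9 to 93.5.

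The largest falls in liver were near Arap2, from 90.8 to 30.7, Slc35a5, from 84.8 to 24.7, and Arhgap42, from 87.4 to 30.7. In kidney the largest rises were near Sh2d4a, from 6.03 to 67.2, Nme9, from 23.2 to 82.0, and Mnt, from 1.80 to 58.9. The Sh2d4a and Mnt regions held HNF1 matches, as did 7.94% of all shared regions. The other regions named here for the largest rises and falls held no HNF1 or HNF4 match. A region 133838 bp from Ahr, the dioxin receptor, fell most in kidney, from 65.6 to 10.5, on 45 and 16 tags, while it ranked 84.0 and 86.6 in liver. Magi1 followed from 67.9 to 17.0 and Fabp12 from 67.1 to 17.0. Counts of this size, each from a single library, give wide counting intervals, and none of these shifts has a replicate.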

How the data were processed

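ATAC-seq peak lists of 16 libraries were used, 1 per tissue and state. Per the labels and the study's methods, the authors trimmed adapters, mapped the reads with Bowtie2 (build GRCm38), discarded duplicates, mitochondrial and unmapped reads, moved the ends to the Tn5 cut and called peaks per pooled library with MACS2, keeping at most 300000 rows (versions not given in the sources used here). The deposited columns hold the fold enrichment at the summit (a ratio to the expected tags), the −log10 p, the −log10 q and the summit offset. They are not scaled between libraries, so only ranks within a list were compared.

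Rows with equal coordinates were taken as 1 region with the smallest p-value. Regions with a −log10 q of at least 2 were merged at 1 bp overlap. Tags at a summit were recovered from fold enrichment and p-value under the Poisson model, and 98.3% to 100% of summits per list gave whole numbers within 0.001. For each merged region the summit of the highest-ranked peak among all 16 libraries was placed on GENCODE vM21 genes and the GRCm38.p6 sequence. Motifs were exact letters within 100 bp on both strands. Shares carry exact 95% Clopper-Pearson intervals. The scripts ran under Python 3.11.15 with pandas 2.3.3, numpy 2.4.6, scipy 1.17.1 and matplotlib 3.10.9, and the steps were tested on simulated lists.

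The regions, gene lists and motifs were chosen with earlier results of these data known. Named were the 10 strongest regions, the 10 strongest near a coding start, the 10 genes with most regions, up to 4 leading genes of each list (beside counts for others), the 3 largest rises and falls per organ, and 3 regions on each side of the threshold. The sequences are those of the 6 strongest regions with an HNF1 or HNF4 match, 1 per gene, outside chromosome 18 and, as added later, outside exons. With 1 library per group no test was made. Values of some list genes are not reported here.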

Additional observations from a re-analysis of the deposited data

How the results depend on the processing

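Of 71 values under other settings, 34 stayed within 1.5 times the main count or inside its counting interval and 37 moved. With a −log10 q of at least 6 in the liver and kidney lists, 2011 regions remained, with 30.6% near a start, HNF1 in 9.60%, median ranks of 86.3 in liver and 74.6 in kidney, 17 and 106 shifts and 1593 genes. With the 100000 strongest regions of each list there were 2290 regions, 30.2% near a start, HNF1 in 9.43%, HNF4 in 7.51%, ranks of 83.8 and 75.02, 76 and 70 shifts and 1784 genes. Fed lists alone gave 7208 regions, HNF1 in 5.98%, HNF4 in 4.98%, ranks of 70.9 and 57.7 and 4266 genes, and fasting lists alone 9064, 6.07%, 4.83%, 71.2, 59.0 and 4904. These settings use fewer or more lists and peaks by construction. A window of 1000 bp left 12.1% near a start, and protein-coding starts alone 21.0%. Within 250 bp of the summit HNF1 was in 9.997% and HNF4 in 8.20%. Ranks by fold enrichment had medians of 77.4 in liver and 63.7 in kidney, and a shift of 30 points left 354 regions in liver and 199 in kidney. In each setting run with the 100 bp window, the HNF1 and HNF4 shares lay above those of all merged regions, 0.703% and 0.535%. No paired analysis was possible because each group has 1 library. Depth limits what absence means: liver was the shallowest tissue, and a region with no listed peak may be open below the end of a list.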
